A study of Mus musculus with 6 samples.

Results

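The genes described are 7 members of clade B of the serpins, Serpinb1a, Serpinb2, Serpinb6a, Serpinb6b, Serpinb8, Serpinb9 and Serpinb9b, taken by gene symbol from the 56691 genes of the deposited table. They are 7 of 29 clade B genes listed there, counting a pseudogene. Bulk RNA-seq gave their levels in inguinal white adipose tissue, a subcutaneous fat depot of the groin, from male C57BL/6J mice. The mice were 8 weeks of age at the start. For the next 8 weeks 3 of them were kept with 1 mouse per cage (single housing) and 3 with 4 to 6 mice per cage (group housing), and the labels name no transgene or drug in either group. Each mouse gave 1 library, and the labels do not say whether group-housed mice shared a cage or a litter. The study asks what social isolation does to this fat depot. The list of symbols was chosen by someone who knew the fold changes of the housing comparison, in which Serpinb9b stood out, so their housing differences are given as a description. Tests run over all genes are counted for the whole table, and nothing about a member is read from them.

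Serpins inhibit proteases by a bait mechanism: the protease cuts an exposed reactive centre loop and is then trapped in a covalent complex with the refolded serpin. Clade B serpins lack a classical signal peptide and act mainly inside the cell, where they protect it from its own granule and lysosomal proteases or from those of cytotoxic lymphocytes. In fat they can come from leukocytes, vessels, adipocytes and other cells of the pad. In bulk tissue, fewer cells of a type and less RNA per cell cannot be told apart.

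Libraries held 21410779 to 35318376 counts under single housing and 22002000 to 33982084 counts under group housing. All 8 adipocyte markers were detected, and their summed level was 3844 to 5288 FPKM (counts scaled to exon length and library total) in single-housed and 3156 to 5448 FPKM in group-housed libraries. Tissue content differed between groups and between libraries within each group. Mitochondrial genes took 9.19 to 12.1% of counts in single-housed and 6.02 to 7.53% in group-housed libraries. The 6 endothelial markers, all above 0 in log2 fold change, summed to 136 to 162 FPKM in single-housed and 105 to 125 FPKM in group-housed libraries. The part of either in the serpin levels was not tested. The 10 skeletal muscle markers together reached 21.8, 18.3 and 3253 FPKM in single-housed libraries 1, 2 and 3, against 275, 1165 and 17.4 FPKM in group-housed libraries 1, 2 and 3. B cell markers, which a groin pad with its lymph node holds, summed to 852, 819 and 389 FPKM under single housing, against 920, 635 and 1063 FPKM under group housing. None of these markers was at 0. Single-housed library 3 and group-housed library 2 were the lowest of their groups in B cell markers and the highest in muscle markers.

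Close gene copies bear on the values of the members on chromosome 13. There 17 clade B genes, counting a pseudogene, lie within 1161 kb, and 5 members are among them. Serpinb9b (mm39, chr13:33211399-33225867, plus strand) begins 9.46 kb beyond the end of Serpinb9 (chr13:33187233-33201940, plus strand). Over 1122 aligned coding bases of the GENCODE M21 transcripts (GRCm38), Serpinb9 and Serpinb9b were 86.0% identical, with 157 mismatches, and Serpinb6a and Serpinb6b were 86.3% identical. Serpinb1a was closest to Serpinb1b, at 90.6%. Both stretches of 120 coding bases below are shown because they span the range of likeness between the neighbours Serpinb9 and Serpinb9b. Capitals mark bases that differ between the copies. In the most alike stretch, coding bases 6 to 125, the copies differed at 5 bases.
Serpinb9: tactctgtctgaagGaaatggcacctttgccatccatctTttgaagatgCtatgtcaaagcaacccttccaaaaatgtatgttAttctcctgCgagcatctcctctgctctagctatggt
Serpinb9b: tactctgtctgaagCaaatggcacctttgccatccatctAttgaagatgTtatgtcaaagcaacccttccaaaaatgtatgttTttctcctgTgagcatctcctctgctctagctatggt
In the least alike stretch, coding bases 439 to 558, they differed at 31 bases.
Serpinb9: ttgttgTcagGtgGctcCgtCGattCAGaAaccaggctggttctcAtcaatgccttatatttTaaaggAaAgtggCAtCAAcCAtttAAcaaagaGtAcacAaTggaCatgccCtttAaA
Serpinb9b: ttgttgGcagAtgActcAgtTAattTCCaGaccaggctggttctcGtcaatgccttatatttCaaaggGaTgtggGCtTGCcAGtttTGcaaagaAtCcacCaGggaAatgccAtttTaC
Serpinb6a (chr13:34101901-34186777, minus strand) and Serpinb6b (chr13:33149192-33163050, plus strand) differed at 26 bases in their least alike stretch, which covers coding bases 970 to 1089 of Serpinb6a and 910 to 1029 of Serpinb6b.
Serpinb6a: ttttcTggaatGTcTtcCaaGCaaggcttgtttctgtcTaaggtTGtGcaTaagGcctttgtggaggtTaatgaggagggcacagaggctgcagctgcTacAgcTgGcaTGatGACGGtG
Serpinb6b: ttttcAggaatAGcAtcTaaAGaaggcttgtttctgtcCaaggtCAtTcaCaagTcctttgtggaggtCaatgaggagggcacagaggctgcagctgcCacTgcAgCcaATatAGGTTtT

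Exact sharing of sequence was small. Of the 3347 distinct 50-base words in Serpinb9b transcripts, 13 (0.388%) also occurred in another clade B gene, all of these in Serpinb9. At 100 bases Serpinb1a, Serpinb6a, Serpinb6b, Serpinb8, Serpinb9 and Serpinb9b shared 0 words with any other clade B gene, while Serpinb2 shared 176 of its 2339 words (7.52%) with Serpinb10. Serpinb2 (chr1:107439153-107463208, plus strand) overlaps Serpinb10 on the same strand. Read length and the handling of reads with several matches, not given in the sources used here, leave the split of reads between copies uncertain.

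Serpinb9b, a close relative of the granzyme B inhibitor Serpinb9, differed most between housing groups among the members. It stood at 0.14, 0.18 and 0.06 FPKM in single-housed libraries 1, 2 and 3, against 2.42, 1.80 and 3.13 FPKM in group-housed libraries 1, 2 and 3. These levels rest on 16, 13 and 5 counts in single-housed and 179, 133 and 356 counts in group-housed libraries. The 3 single-housed values all lay below the 3 group-housed ones. The log2 fold change, single minus group housing, was -4.20 ± 0.37 (SE, edgeR, n = 3 each), or 18.3-fold lower under single housing. The minus-strand gene Gm36099 overlaps Serpinb9b and had 13 counts over the 6 libraries.

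**Figure D1:**
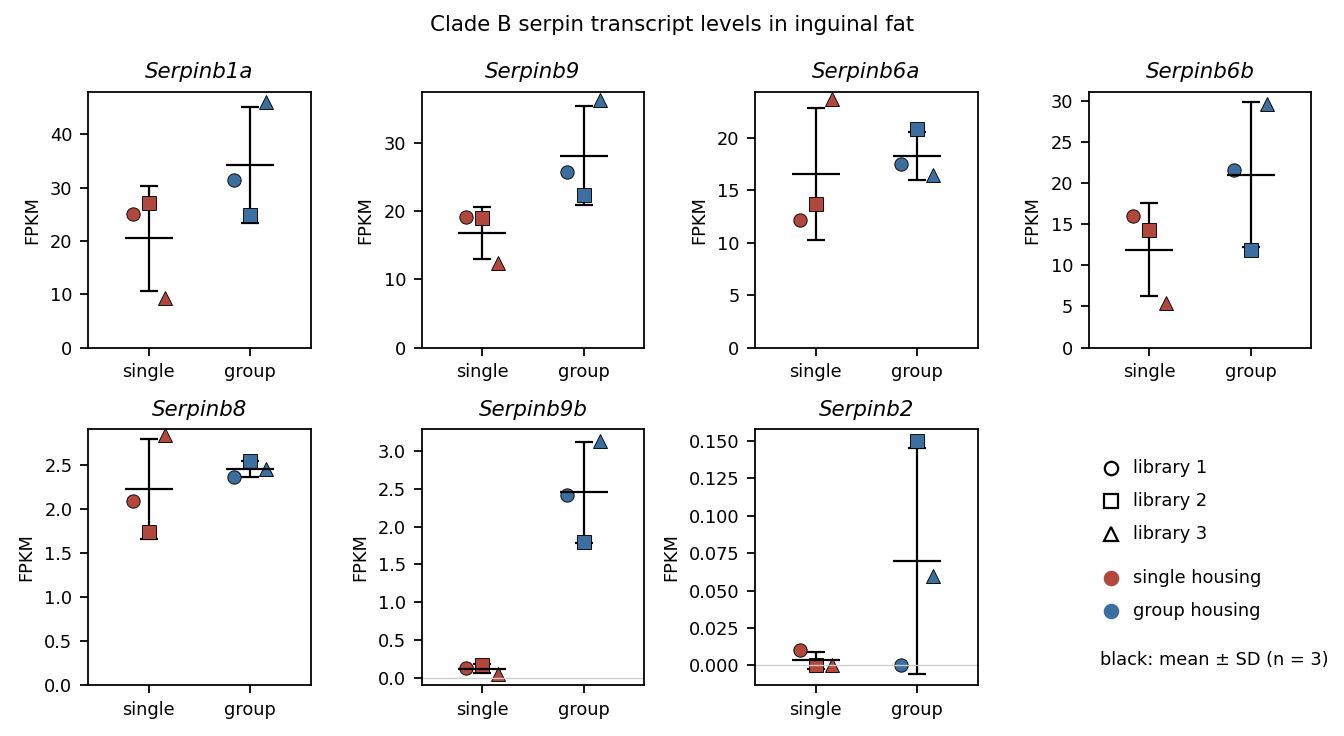
FPKM of each member in the 3 single-housed (red) and 3 group-housed (blue) libraries, with the mean and SD in black and the library number as the symbol; each panel has its own linear axis. Serpinb9b lies between 0.06 and 0.18 FPKM in single-housed and between 1.80 and 3.13 FPKM in group-housed libraries, while the ranges of Serpinb1a, Serpinb6a, Serpinb6b and Serpinb8 overlap.

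Serpinb9b was also set against its neighbour Serpinb9 within each library. Of the counts of Serpinb9 and Serpinb9b together, Serpinb9b took 0.675% (95% Wilson interval 0.416 to 1.09%), 0.907% (0.531 to 1.54%) and 0.461% (0.197 to 1.08%) in single-housed libraries 1, 2 and 3. In group-housed libraries 1, 2 and 3 it took 8.30% (7.21 to 9.54%), 7.19% (6.10 to 8.45%) and 7.63% (6.90 to 8.43%). The single-housed shares rest on 16, 13 and 5 counts of Serpinb9b. The housing contrast had chosen Serpinb9b, so the gap in share between the groups is a description and not a test. The intervals cover counting error only. The share does not depend on scaling between libraries. Its lowest value in each group fell in the muscle-rich library, single-housed 3 and group-housed 2.

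**Figure D2:**
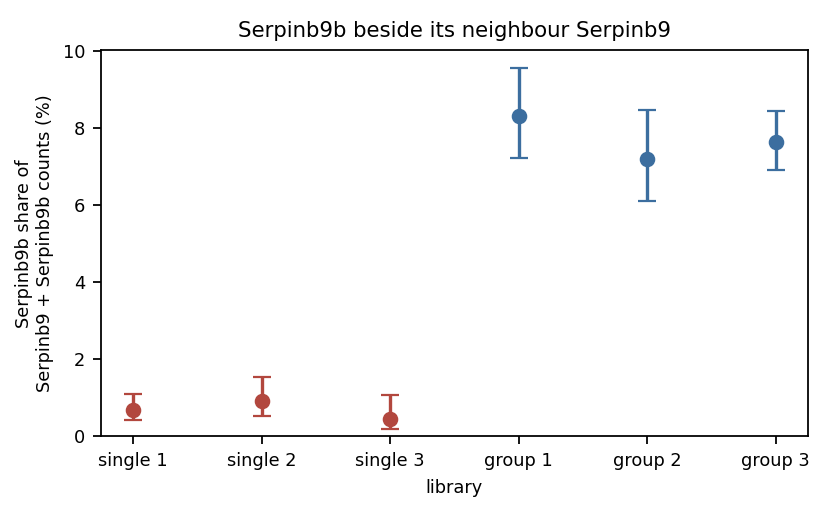
Percent of the counts of Serpinb9 and Serpinb9b that fell to Serpinb9b, for each library, single housing in red and group housing in blue; bars are 95% Wilson intervals. The single-housed libraries lie between 0.461% and 0.907% and the group-housed ones between 7.19% and 8.30%.

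Markers of macrophages, neutrophils, mast cells, B cells and T and NK cells were also mostly below 0, and those of dendritic cells were not. The 12 macrophage and monocyte markers, all detected, summed to 522 to 847 FPKM in single-housed and 758 to 1223 FPKM in group-housed libraries, with 11 of 12 below 0 and a median log2 fold change of -0.51. The 10 neutrophil markers summed to 11.1 to 26.0 FPKM in single-housed and 31.0 to 82.6 FPKM in group-housed libraries, and 6 of the 8 that passed the filter on low counts were below 0, with a median of -1.17. Of the 8 dendritic cell markers 4 were above and 4 below 0, with a median of -0.04 and sums of 34.8 to 76.5 FPKM in single-housed and 48.0 to 101.7 FPKM in group-housed libraries. All 7 B cell markers were below 0 (median -0.34), as were 10 of 12 T and NK cell markers (-0.18) and 7 of 8 mast cell markers (-0.29). All 10 skeletal muscle markers (median 1.31) and 7 of 8 adipocyte markers (0.21) were above 0. Of 7 adipose progenitor markers 2 were above and 5 below 0 (-0.02). The summed levels of muscle, adipocyte and progenitor markers overlapped between the groups. Over all 18085 genes tested the median was -0.01. The part of these cells in the level of Serpinb9b was not tested.

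Serpinb9 encodes the intracellular inhibitor of granzyme B that shields cytotoxic lymphocytes and antigen-presenting cells. Its transcript stood at 19.1, 19.0 and 12.5 FPKM in single-housed libraries 1, 2 and 3, against 25.7, 22.4 and 36.3 FPKM in group-housed libraries 1, 2 and 3. The groups did not overlap, with the lowest value in single-housed library 3 and the highest in group-housed library 3. The log2 fold change was -0.65 ± 0.19 (SE), 1.57-fold lower under single housing. Counted together as 1 feature, Serpinb9, Serpinb9b and the other copies Serpinb9c to Serpinb9h had a log2 fold change of -0.76 ± 0.19, since Serpinb9 supplied most of the reads.

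Serpinb6b, whose product is a relative of the cathepsin G inhibitor Serpinb6a, had a log2 fold change close to that of Serpinb9 but a wider spread. It stood at 16.02, 14.3 and 5.41 FPKM in single-housed libraries 1, 2 and 3, against 21.6, 11.9 and 29.6 FPKM in group-housed libraries 1, 2 and 3. The groups overlapped, because group-housed library 2 lay below single-housed libraries 1 and 2. Its log2 fold change was -0.74 ± 0.41 (SE). Serpinb1a (chr13:33026075-33035168, minus strand), the mouse counterpart of the human inhibitor of neutrophil elastase, cathepsin G and proteinase 3, stood at 25.0, 27.2 and 9.23 FPKM in single-housed libraries 1, 2 and 3. In group-housed libraries 1, 2 and 3 it stood at 31.5, 25.0 and 46.2 FPKM. The groups overlapped through group-housed library 2, and the log2 fold change was -0.67 ± 0.36 (SE).

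Serpinb1a, Serpinb6b and Serpinb9 followed each other across libraries. All 3 were lowest in single-housed library 3 and highest in group-housed library 3, and so was Serpinb9b. Serpinb1a and Serpinb6b lay 1.26 below their own mean log2 CPM (counts scaled to library size) in single-housed library 3, where B cell markers lay 1.10 and T and NK cell markers 0.91 below theirs. In group-housed library 3 Serpinb1a lay 0.77 and Serpinb6b 0.89 above the mean. B cell markers lay 0.46, macrophage and monocyte markers 0.40 and neutrophil markers 1.12 above theirs. Neutrophil markers lay 0.65 below their mean in single-housed library 3 and 0.93 below in single-housed library 2. Pearson's r of log2 CPM over the 6 libraries was 0.97 between Serpinb1a and Serpinb6b, 0.91 between Serpinb1a and Serpinb9 and 0.90 between Serpinb6b and Serpinb9. Serpinb9b had 0.91 with Serpinb9, 0.74 with Serpinb1a and 0.71 with Serpinb6b. After centring within each housing group these were 0.87, 0.97 and 0.92, where the single-housed values of Serpinb9b rest on few counts. These are descriptions of 6 libraries that differ in tissue content. The part of lymph node or other leukocyte content in the correlations was not tested.

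Serpinb6a, whose product inhibits cathepsin G in neutrophils and other cells, and Serpinb8, whose human counterpart inhibits the proprotein convertase furin, followed another pattern. Their r with Serpinb9 over the 6 libraries was -0.36 and -0.28, and after centring within each housing group -0.87 and -0.75. Serpinb6a stood at 12.2, 13.7 and 23.7 FPKM in single-housed libraries 1, 2 and 3, against 17.5, 20.9 and 16.4 FPKM in group-housed libraries 1, 2 and 3. It was highest in the muscle-rich libraries of both groups, single-housed 3 and group-housed 2. Serpinb8 (chr1:107517736-107538214, plus strand) stood at 2.09, 1.74 and 2.85 FPKM in single-housed and 2.37, 2.55 and 2.46 FPKM in group-housed libraries. Its highest level also fell in single-housed library 3, while the group-housed libraries differed little. The log2 fold changes were -0.03 ± 0.31 for Serpinb6a and -0.04 ± 0.25 for Serpinb8 (SE), within 1 SE of 0. Both turned slightly positive when single-housed library 1, single-housed library 2 or group-housed library 2 was left out, up to 0.18 for Serpinb6a and 0.14 for Serpinb8. Without single-housed library 3 they were -0.47 and -0.33. Serpinb6a overlaps Ripk1, Nqo2 and 1110046J04Rik on the opposite strand, with 8745, 4304 and 172 counts over the 6 libraries. With the strand setting not given, reads of these genes and of Serpinb6a may not have been told apart.

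**Figure D3:**
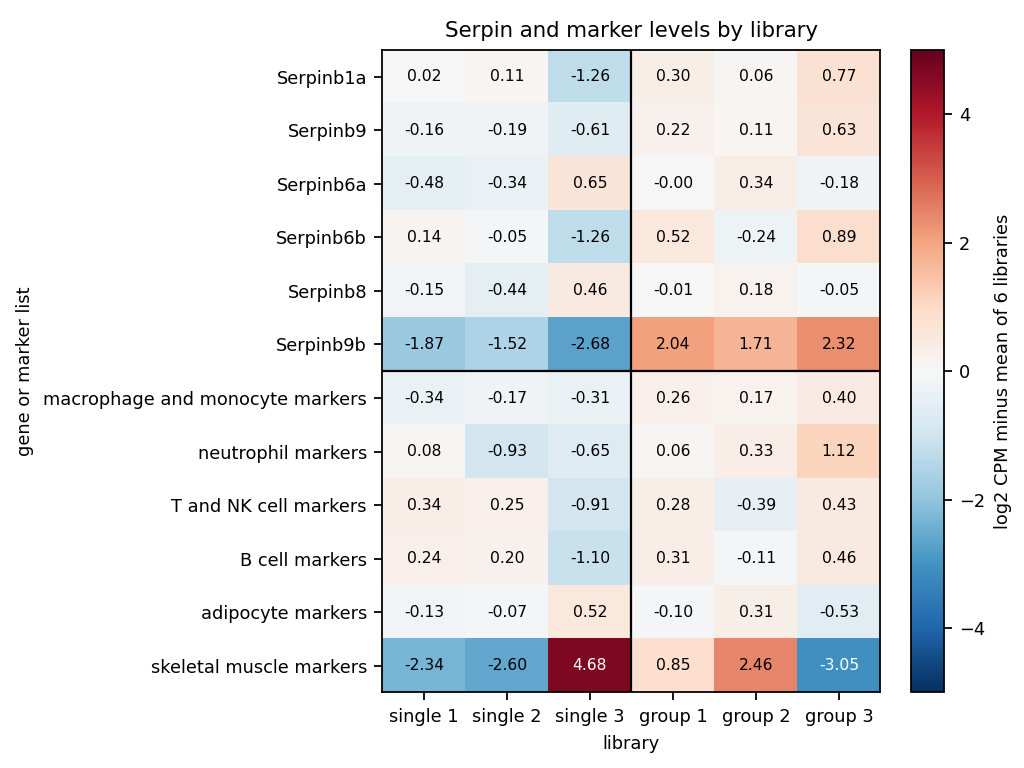
Log2 CPM of 6 serpin genes, and mean log2 CPM of 6 marker lists, each minus its mean over the 6 libraries (colour and number), with single-housed libraries left of the line. Serpinb1a, Serpinb6b and Serpinb9 are lowest in single-housed library 3, where B cell markers are at -1.10 and muscle markers at 4.68, and Serpinb6a and Serpinb8 are highest there.

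The makeup of clade B transcripts shifted accordingly within single libraries. Serpinb6a supplied 58.5% of the counts of the 7 members in single-housed library 3, and the other single-housed libraries had 27.9% and 30.3%. Under group housing it supplied 29.1%, 38.4% and 21.6% in libraries 1, 2 and 3. Serpinb1a supplied 9.70% in single-housed library 3 and between 19.5% and 25.9% in the other 5 libraries.

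Serpinb2, known as plasminogen activator inhibitor type 2 and induced in activated macrophages, was near the limit of detection. It had 1, 0 and 0 counts in single-housed libraries 1, 2 and 3, against 0, 8 and 5 counts in group-housed libraries 1, 2 and 3. A count of 0 allows up to 3 counts, so the single-housed libraries and group-housed library 1 cannot be told apart. The ratio of counts per library size, single over group housing, was 0.0736, with an exact 95% interval of 0.00173 to 0.49 that covers counting error and not the spread between mice. Serpinb2 did not pass the filter on low counts.

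By mean FPKM, a level per length, the order under single housing was Serpinb1a (20.5 ± 9.80), Serpinb9 (16.8 ± 3.80), Serpinb6a (16.5 ± 6.26), Serpinb6b (11.9 ± 5.70), Serpinb8 (2.23 ± 0.57) and Serpinb9b (0.13 ± 0.06, SD, n = 3 each). Under group housing it was Serpinb1a (34.2 ± 10.9), Serpinb9 (28.1 ± 7.28), Serpinb6b (21.02 ± 8.84), Serpinb6a (18.3 ± 2.31), Serpinb8 (2.46 ± 0.09) and Serpinb9b (2.45 ± 0.67). In each group the neighbours among the first 4 differed by less than the larger of their SDs, and Serpinb8 lay below them without overlap. Serpinb8 and Serpinb9b stood level under group housing and did not overlap under single housing.

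Of the 7 members 6 passed the filter on low counts, and their log2 fold changes were all below 0, with a median of -0.66. That median covers genes chosen for their values, and 51.9% of all genes tested were below 0. Under edgeR's quasi-likelihood test 0 genes had an adjusted p below 0.05 (0.0% of 18085). Without adjustment, 1259 genes had a p below 0.05. DESeq2 called 179 genes and limma on log2(FPKM + 1) called 0. Whether a member is among the genes called is not read in any of these tests, since the housing contrast had chosen the members. The DESeq2 calls held 113 genes lower in single housing, 0.542% of those with an adjusted p. The 2 members whose groups did not overlap, both lower in single housing, were Serpinb9b and Serpinb9, and 6.78% of all genes tested were lower in the same way. No member was higher without overlap, against 6.61% of all genes tested. A log2 fold change at or below that of Serpinb9 was seen in 4.01% of genes.

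The count of members with separate groups depended on single libraries. Without single-housed library 2 it was 3 (Serpinb1a, Serpinb9 and Serpinb9b), where 9.52% of all genes were lower without overlap. Without single-housed library 3 it was 4 (Serpinb6a, Serpinb8, Serpinb9 and Serpinb9b), where 10.7% were. Without group-housed library 2 it was also 4 (Serpinb1a, Serpinb6b, Serpinb9 and Serpinb9b), where 17.2% were. Without both libraries all 6 were lower in the 2 single-housed than in the 2 group-housed libraries left, where 21.5% of all genes were. The housing contrast had chosen the members, so nothing is read from these counts.

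**Figure D4:**
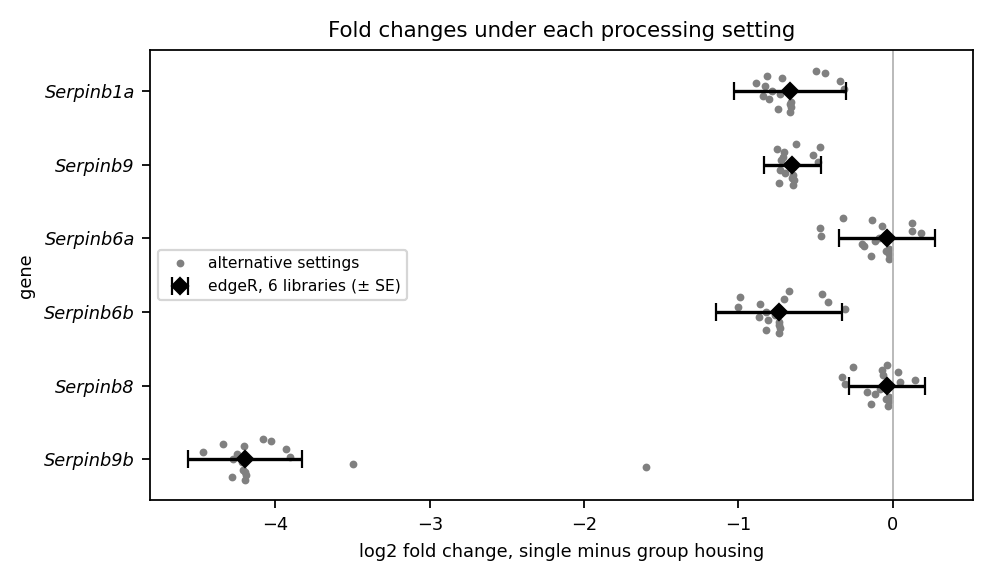
Log2 fold change, single minus group housing, of the 6 members that passed the filter: black diamonds with SE bars for edgeR on all 6 libraries, grey points for each alternative setting. Serpinb9b runs from -4.47 to -1.60, which is the value on log2(FPKM + 1), and Serpinb6a and Serpinb8 lie on both sides of 0.

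The other 22 clade B genes, counting a pseudogene, were almost silent in this fat pad. Of these, 9 had 0 counts in all 6 libraries, 7 had 1 to 5 counts and 6 had more. Together they gave 300 of 46951 clade B counts, or 0.639%. Among them the 6 copies Serpinb9c to Serpinb9h, which lie beyond Serpinb9b on chromosome 13, gave 3 counts in all. The 3 that passed the filter on low counts were Serpinb7, Serpinb1b and Serpinb10, and 0 passed the test. Serpinb7 had 17, 8 and 6 counts in single-housed and 16, 11 and 18 counts in group-housed libraries. Its log2 fold change was -0.56 ± 0.37 (SE; adjusted p = 0.829 in edgeR). Scaled to CPM its groups did not overlap, by 0.481 in single-housed library 1 against 0.484 in group-housed library 3. Serpinb1b and Serpinb10 had log2 fold changes of -0.58 ± 0.52 and 0.36 ± 0.39 (SE), with adjusted p = 0.858 and 0.879 in edgeR.

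**Figure D5:**
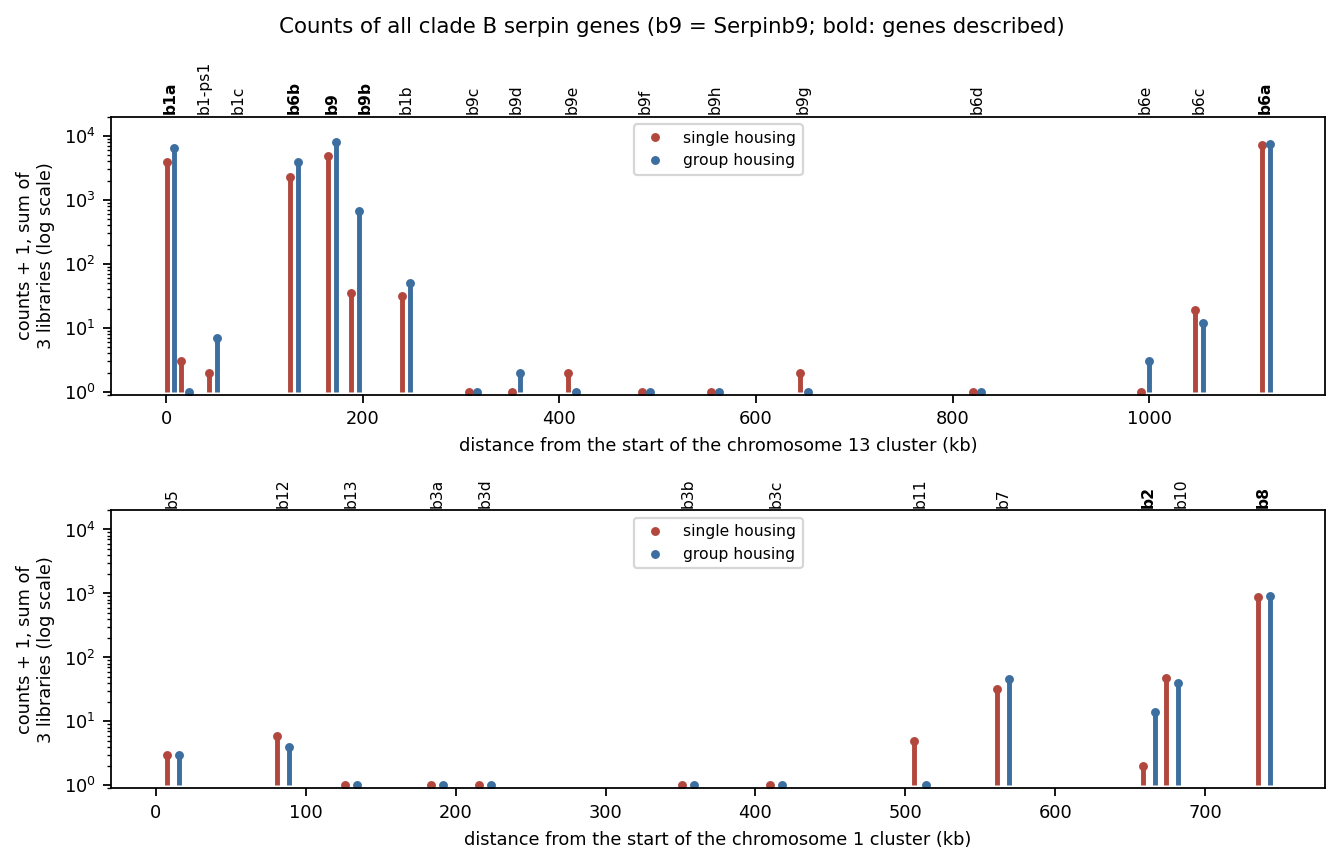
Counts plus 1 of every clade B serpin gene, summed over the 3 single-housed (red) and 3 group-housed (blue) libraries on a log axis, against distance from the start of its cluster on chromosome 13 (top) or chromosome 1 (bottom); genes described are in bold. Serpinb9b is the gene with the widest gap between colours, with 34 counts under single and 668 under group housing, and Serpinb9c to Serpinb9h lie at or near 0.

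Proteases that clade B serpins meet were counted from lists. Of the 11 granzymes and perforin, 6 passed the filter, 2 above and 4 below 0, with a median of -0.15. Gzmb, the target of Serpinb9, stood at 1.82 ± 0.67 FPKM in single-housed and 2.42 ± 1.15 FPKM in group-housed libraries (SD, n = 3 each; adjusted p = 0.888 in edgeR). Prf1, which makes the pore through which granzymes enter, stood at 2.21 ± 0.88 FPKM in single-housed and 2.90 ± 1.35 FPKM in group-housed libraries. Gzmk had 18, 11 and 11 counts in single-housed and 11, 0 and 7 counts in group-housed libraries. Its groups did not overlap in CPM, by 0.498 in single-housed library 3 against 0.484 in group-housed library 1. In FPKM they overlapped, with 0.32 and 0.36 in the same libraries. No granzyme passed the test in edgeR or DESeq2.

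Of 9 neutrophil and mast cell serine proteases, 6 passed the filter, 1 above and 5 below 0, with a median log2 fold change of -0.43, and 0 passed the test in edgeR or DESeq2, with 2 lower at p below 0.05 before adjustment. The 3 of smallest p were mast cell proteases. Mcpt4, a mast cell chymase, stood at 11.4, 9.48 and 9 FPKM in single-housed and 12.4, 16.7 and 15.8 FPKM in group-housed libraries. Cma1, another chymase, stood at 5.85 ± 0.29 FPKM in single-housed and 8.45 ± 0.93 FPKM in group-housed libraries, and Tpsab1, a tryptase, at 0.18 ± 0.05 FPKM in single-housed and 0.56 ± 0.22 FPKM in group-housed libraries. The groups of these 3 genes did not overlap, and their adjusted p in edgeR were 0.635, 0.724 and 0.482. Mast cell markers, of which Mcpt4 and Cma1 are part, summed to 31.0 to 33.1 FPKM in single-housed and 36.6 to 46.6 FPKM in group-housed libraries.

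Among cysteine cathepsins and caspases, all 10 passed the filter and 9 were below 0, with a median of -0.32. Casp4, the inflammatory caspase that senses cytosolic lipopolysaccharide, stood at 5.61, 5.95 and 3.76 FPKM in single-housed and 8.80, 9.05 and 10.5 FPKM in group-housed libraries. Its groups did not overlap, and its log2 fold change was -0.81 ± 0.15 (SE; adjusted p = 0.302 in edgeR and 0.00413 in DESeq2). Ctsh, a lysosomal cathepsin, and Casp8, an initiator caspase, had log2 fold changes of -0.43 and -0.31, with adjusted p = 0.718 and 0.734 in edgeR. Of 7 genes of the plasminogen activator system, 5 passed the filter, 2 above and 3 below 0. Plaur, the urokinase receptor, stood at 3.36 ± 1.70 FPKM in single-housed and 5 ± 1.35 FPKM in group-housed libraries, and Serpine2, a serpin that inhibits thrombin and plasminogen activators, at 5.37 ± 1.29 FPKM in single-housed and 4.63 ± 1.31 FPKM in group-housed libraries.

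For each member that passed the filter, the 3 annotated genes of most similar log2 CPM across the 6 libraries were taken, leaving out clade B serpins and predicted genes. For Serpinb9b these were Klra2, a lectin-like receptor (Pearson's r = 0.99), Tfpi2, a secreted inhibitor of serine proteases (0.99), and Sirpb1b, of the signal regulatory protein family (0.99). After centring within each housing group the values were 0.85, 0.87 and 0.66, so the housing difference carried part of the likeness. The genes were Apobec1, Nup93 and Tpm4 for Serpinb9, Ms4a6c, Dennd5b and Nlrc5 for Serpinb1a, and Cyrib, Cxcl16 and Nono for Serpinb6b. For Serpinb6a they were Rbfox1, Emp2 and 1 of 2 rows that carry the symbol Aldoa, and for Serpinb8 Fzd2, Tfpt and Tuba1a. For these genes r was 0.986 or above over the 6 libraries. Every gene here was taken for its high r among many genes, so the height of r follows from the choice. All are descriptions over libraries that differ in tissue content.

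Promoters of the neighbours Serpinb9 and Serpinb9b are shown because the genes lie side by side and differ in their housing values. RefSeq promoters (GRCm38.p6) matched 6 of 7 members, and Serpinb1a had no match. The 250 bases before the start of Serpinb9 (chr13:33004291-33004540, plus strand) and of Serpinb9b (chr13:33027164-33027413, plus strand) were 64.7% identical over 232 aligned bases. Capitals mark a motif match.
Serpinb9: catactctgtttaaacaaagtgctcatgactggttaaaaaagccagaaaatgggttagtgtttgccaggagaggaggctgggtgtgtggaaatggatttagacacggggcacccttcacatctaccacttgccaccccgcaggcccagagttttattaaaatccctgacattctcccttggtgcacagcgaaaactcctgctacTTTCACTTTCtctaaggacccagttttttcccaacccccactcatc
Serpinb9b: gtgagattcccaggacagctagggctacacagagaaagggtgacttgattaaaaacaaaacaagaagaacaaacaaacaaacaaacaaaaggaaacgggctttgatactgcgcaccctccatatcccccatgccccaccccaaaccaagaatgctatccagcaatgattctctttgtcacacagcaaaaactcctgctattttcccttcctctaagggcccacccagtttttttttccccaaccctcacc
The motifs searched on both strands were the interferon-stimulated response element core (GAAA and GAAA with any 2 bases between), the STAT site TTCNNNGAA, the AP-1 site TGANTCA, the cyclic AMP response element TGACGTCA, the PU.1 site GAGGAAGT, the heat shock element (GAA, TTC and GAA with any 2 bases between each) and the NF-kB consensus, with TATAAA on the strand of the gene. Serpinb9 held the interferon-stimulated core on its minus strand, at bases -46 to -37 from the start, and 2.98% of 32851 promoters of the same length held it on either strand. Of the 2 promoters of Serpinb6a, the upstream one held it at -84 to -75, overlapping a STAT site at -77 to -69, and the other held none of the motifs. A STAT site was held by 7.02% of promoters. The windows of Serpinb9b and Serpinb6b held none of these letters. Serpinb2 held TATAAA at -29 to -24 and TGANTCA at -94 to -88 before its first start, and a STAT site at -77 to -69 before its second start. Serpinb8 held TGANTCA at -23 to -17, which 6.75% of promoters held. A match is a description of the sequence and not a site of binding.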

How the data were processed

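Total RNA of inguinal fat was prepared with TRIzol, DNase I and RNeasy columns, per the labels' protocols. The genome build was mm39, per the submitters' processing notes. Aligner, counter, annotation release and strand setting: not given in the sources used here, and so unknown. The deposited table holds raw counts per gene, per the file headers, and a second sheet holds the same counts. The deposited FPKM are the authors' counts divided by summed exon length and library total: 100% equalled that quotient within 0.0051. Another 24 columns of per-sample values name other tissues and were not used. Rows without a symbol (2639) took 0.118 to 0.171% of counts and stayed in the test.

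Counts were tested with edgeR 4.0.16 in R 4.3.3 (filterByExpr, TMM, quasi-likelihood F test, two-sided, Benjamini-Hochberg over 18085 genes, threshold 0.05). Standard errors were taken as the size of the log2 fold change over the root of F. DESeq2 1.42.0, limma 3.58.1 on log2(FPKM + 1) and on log2(FPKM + 0.1), other scalings, no filter, marker covariates and leaving out libraries were alternatives. DESeq2 gave an adjusted p to 20847 genes. The edgeR and DESeq2 steps were tested on simulated counts. Coding sequences were aligned with Biopython 1.88. P-values measure the spread between these mice, which may have shared cages. Replicate numbers were not taken as pairs in the main fit, and whether they pair libraries is not known. Their number of 3 a group limits precision. The members, lists and tests were chosen with earlier results of these data known. Genes named are the members, clade B genes past the filter, the 3 of smallest p in each protease list and the 3 most similar in pattern to each member. A gene that this rule names is not reported here.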

Additional observations from a re-analysis of the deposited data

How the results depend on the processing

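Serpinb1a, Serpinb6b, Serpinb9 and Serpinb9b kept a log2 fold change below 0 under each of the 17 alternatives run for each. The alternatives refit the same 6 libraries or part of them, and the housing contrast had chosen the members. A kept sign is therefore a description and no separate support. Serpinb9 ranged from -0.75 to -0.47, Serpinb6b from -1 to -0.31, Serpinb1a from -0.89 to -0.32 and Serpinb9b, on counts, from -4.47 to -3.90. On log2(FPKM + 1) Serpinb9b was at -1.60 and on log2(FPKM + 0.1) at -3.50, where the added constant compresses a gene at this level. Leaving out 1 library gave -0.47 to 0.18 for Serpinb6a, with sign changes to 0.18, 0.12 and 0.12, and -0.33 to 0.14 for Serpinb8, with sign changes to 0.05, 0.14 and 0.04, without single-housed library 1, single-housed library 2 or group-housed library 2 in that order; the cause was not tested. Summed copies had log2 fold changes of -0.66 for Serpinb1, -0.22 for Serpinb6 and -0.76 for Serpinb9.

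The count of genes called over all genes was 0 in edgeR, 53 without the filter on low counts, 179 in DESeq2, 954 with muscle markers and 145 with B cell markers as covariate, and 22 without both muscle-rich libraries. It was 0 in each fit without 1 library. The cause of these differences was not tested. The count of members lower without overlap was 2 to 4 without 1 library and 6 without both muscle-rich libraries. Of all genes tested, 6.78% were lower without overlap in the 6 libraries and 21.5% without both muscle-rich ones. The share was 9.52% without single-housed library 2, 10.7% without single-housed library 3 and 17.2% without group-housed library 2. The housing contrast had chosen the members, so nothing is read from their counts. With the replicate block 0 genes were called and Serpinb9b was at -4.22. After centring within each group the same-numbered libraries correlated at 0.12, -0.56 and -0.70. The 2 muscle-rich libraries, single-housed 3 and group-housed 2, correlated at 0.72. The part of tissue content in these correlations was not tested. Whether the numbers pair libraries by cage or batch is not known. Serpinb2, at 14 counts in all, is limited by depth.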

Other observations

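Serpins of other clades, most of them secreted, were measured beside clade B. Of 40 such genes, 20 passed the filter on low counts, with 6 above and 14 below 0 in single housing and a median log2 fold change of -0.33, against -0.01 over all genes tested. Serpina3n, an acute-phase serpin chosen here after its values were seen, stood at 61.4, 73.0 and 97.3 FPKM in single-housed libraries 1, 2 and 3, against 69.7, 283 and 148 FPKM in group-housed libraries 1, 2 and 3. Group-housed library 1 lay within the single-housed range, and the adjusted p was 0.768 in edgeR.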
